A study of Mus musculus with 2 samples.

Results

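Neighbouring genes can lie so close that a short stretch of DNA separates them, and the open chromatin sites in such gaps are described here for mouse Stag3 KO GSCs. A site was counted when its summit in replicate 1 lay in a gap of 1 to 1000 bp between adjacent protein-coding genes that do not overlap, and when its peak overlapped a replicate 2 peak by at least 1 bp. The rule used position and recurrence only, and neither fold nor width. It found 595 peaks of 83732 shared peaks (0.711%), in 582 of 2000 such gaps. The gaps total 685 kb and have a median length of 250 bp, and 13 of them held 2 peaks each.

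The data are ATAC-seq peak lists of 2 libraries, numbered 1 and 2 in their titles, from 1 group. The cells are labelled GSC, which the series title places in the male germline, with the genotype Stag3 KO from a line (AAG) that carries 2 reporters, Acrosin-EGFP and beta-Actin-EGFP. Viable reporter-positive cells were sorted. Stag3 encodes a subunit of the cohesin ring. All values come from knockout cells, the wild-type cells named in the design text were not analysed here, and no value is an effect of the knockout. No label states that the cells were cultured separately for each library, and the SDs given here may reflect technical spread alone. The lists held 107331 and 98986 peaks, and the sources used here give no read depth. The tags stacked at each summit were recovered from the deposited fold and p-value, with a median of 40 tags in replicate 1 and 41 in replicate 2. All 8 germ cell marker genes examined (Ddx4, Dazl, Gfra1, Ret, Zbtb16, Id4, Etv5 and Sall4) had a shared peak within 1000 bp of a gene end, against 65.6% of all 21887 protein-coding genes, 18 of 30 markers of testis somatic and feeder cells and 7 of 16 of endothelial and blood cells.

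A gap between genes can have 3 layouts. In a head-to-head gap both genes start at the gap and are transcribed away from it, so that the gap holds a bidirectional promoter, a layout known to be common among housekeeping and DNA repair genes. In a same-direction gap the end of one gene is followed by the start of the next. In a tail-to-tail gap both genes end there and no start site faces the gap. Strand was taken from RefSeq promoter windows on GRCm38.p6, which matched 2965 of the 3619 genes at short gaps (81.9%). Both strands were known for 1431 gaps, of which 563 were head-to-head, 444 same-direction and 424 tail-to-tail, and 569 gaps have no layout here.

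The sequences of 8 head-to-head gaps and 1 same-direction gap are printed to show what the sites are made of. They were taken from the RefSeq promoter windows (GRCm38.p6), cover the gap and no base of either gene, and are given 5′ to 3′ on the plus strand. Capitals mark letters of known promoter motifs on either strand: CCAAT, which NF-Y binds, the GGGCGG of SP and KLF factors, CCGGAAG of ETS factors, GCGCATGCG of NRF1 and TCTCGCGAG, here called Kaiso-like. The search also took in AAGATGGCG (YY1), TTTGGCGC and TTCCCGCC (E2F), TGACGTCA (CRE), ACTACAATT (ZNF143) and TATAAA, which TBP binds, none of which occurs in the stretches below. TTCCCGCC can share bases with GGGCGG read on the other strand. The first 3 belong to the strongest sites, the next 4 to genes of cohesin, meiosis, DNA repair and replication, and the last 2 are alike histone gaps with and without a peak.

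Trappc11 and Rwdd4a, chr8:47533471-47533644, plus strand: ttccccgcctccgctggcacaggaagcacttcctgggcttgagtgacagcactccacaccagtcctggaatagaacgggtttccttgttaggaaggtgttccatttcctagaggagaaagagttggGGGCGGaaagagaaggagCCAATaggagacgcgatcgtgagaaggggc
Rhot2 and Wdr90, chr17:25844526-25844733, plus strand: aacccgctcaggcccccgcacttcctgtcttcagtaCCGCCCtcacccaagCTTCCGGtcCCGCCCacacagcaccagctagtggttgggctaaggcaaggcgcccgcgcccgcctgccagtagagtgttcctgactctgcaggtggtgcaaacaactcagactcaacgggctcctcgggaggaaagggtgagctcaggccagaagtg
Cetn4 and Bbs12, chr3:37312447-37312546, plus strand: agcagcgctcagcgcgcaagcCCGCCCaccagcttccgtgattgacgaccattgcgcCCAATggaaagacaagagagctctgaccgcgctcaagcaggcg
Smc1b and Ribc2, chr15:85131958-85132059, plus strand: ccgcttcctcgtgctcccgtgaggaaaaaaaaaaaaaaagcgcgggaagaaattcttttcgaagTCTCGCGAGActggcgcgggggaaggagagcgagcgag
Cc2d1a and 4930432K21Rik, chr8:84147918-84148007, plus strand: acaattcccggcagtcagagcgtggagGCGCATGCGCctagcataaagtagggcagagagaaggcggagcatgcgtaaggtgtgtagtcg
Ankrd49 and Mre11a, chr9:14784574-14784653, plus strand: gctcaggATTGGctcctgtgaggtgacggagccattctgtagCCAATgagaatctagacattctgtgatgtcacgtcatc
Rpa3 and Umad1, chr6:8259142-8259287, plus strand: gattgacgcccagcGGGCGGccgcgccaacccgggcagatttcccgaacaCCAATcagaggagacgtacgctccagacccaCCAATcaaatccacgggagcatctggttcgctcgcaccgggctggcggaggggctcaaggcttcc
H2ac12 and H2bc12, chr13:22035644-22035820, plus strand: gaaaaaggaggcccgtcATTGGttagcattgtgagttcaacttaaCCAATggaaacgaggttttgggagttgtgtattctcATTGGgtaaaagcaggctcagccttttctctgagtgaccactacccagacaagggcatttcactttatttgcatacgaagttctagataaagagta
H2ac15 and H2bc15, chr13:21753913-21754075, plus strand: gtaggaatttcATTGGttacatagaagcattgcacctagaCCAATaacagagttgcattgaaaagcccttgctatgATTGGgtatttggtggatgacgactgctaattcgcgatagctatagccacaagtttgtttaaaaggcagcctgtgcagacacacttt

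The Trappc11 and Rwdd4a gap, between a gene of a vesicle tethering complex and its neighbour, had 7 CpG dinucleotides and a GC content of 55.7%. The gap of Cetn4, a centrin gene, and Bbs12, a Bardet-Biedl syndrome chaperonin gene, had 10 CpG and 63.0% GC. That of Smc1b, the meiotic SMC subunit of cohesin, and Ribc2 had a ratio of observed to expected CpG of 1.64, and its capitals are the palindromic Kaiso-like motif. The capitals between Cc2d1a and 4930432K21Rik, the gene also called Brme1, are an NRF1 match on both strands. Ankrd49 and Mre11a, the nuclease gene of double-strand break repair, have a CCAAT box on each strand, and Rpa3, a subunit gene of the single-strand binding protein RPA, and Umad1 have a pair on the same strand. A match is a description of letters, and binding was not measured.

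The peaks between closely spaced genes had higher fold, more tags and somewhat greater width than other gene-end peaks. Head-to-head peaks set against single start sites, both within 250 bp outside a gene, differed far less in median fold, by 1.61 in place of 6.34. Fold is the enrichment of tags at the summit over the local background, as the authors' peak caller gave it. The median fold of the 595 peaks was 17.3 in replicate 1 (quartiles 11.1 and 23.04) and 18.8 in replicate 2 (11.9 and 24.3). Other gene-end peaks, the 16822 shared peaks with a summit within 1000 bp of a gene end and in no short gap, had medians of 11.3 and 12.2. The difference of the medians was 6.34 ± 0.407 (SD, n = 2 libraries), larger than the spread between libraries and of the same direction in both. It was 4.22 against gene-end peaks within 500 bp of a gene end and 3.20 against those outside genes. No p-value is given, because peaks of one library are not replicates.

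Median summit tags were 200 and 223 in short gaps against 84 and 94.5 at other gene ends, a difference of 122 ± 8.84 tags (SD, n = 2). Median width was 625 and 601 bp against 523 and 541 bp, a difference of 81.0 ± 29.7 bp (SD, n = 2). It was 131 bp in replicate 1 without the requirement of recurrence in replicate 2, and 29 bp against gene-end peaks within 500 bp of a gene end. Peaks of at least 500 bp made up 70.9% and 70.1% of the short-gap peaks and 52.9% and 55.4% of the others. The short-gap peaks thus lay above the other gene-end peaks in all of these measures in both libraries, with wide overlap of the quartiles. In replicate 1, 84.2% of the short-gap peaks exceeded the median fold of their library, as did 85.5% in replicate 2, against 61.6% and 64.7% of other gene-end peaks. The top 10% of fold in each library took in 25.5% and 27.9% of them, against 12.7% and 15.1%.

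**Figure D1:**
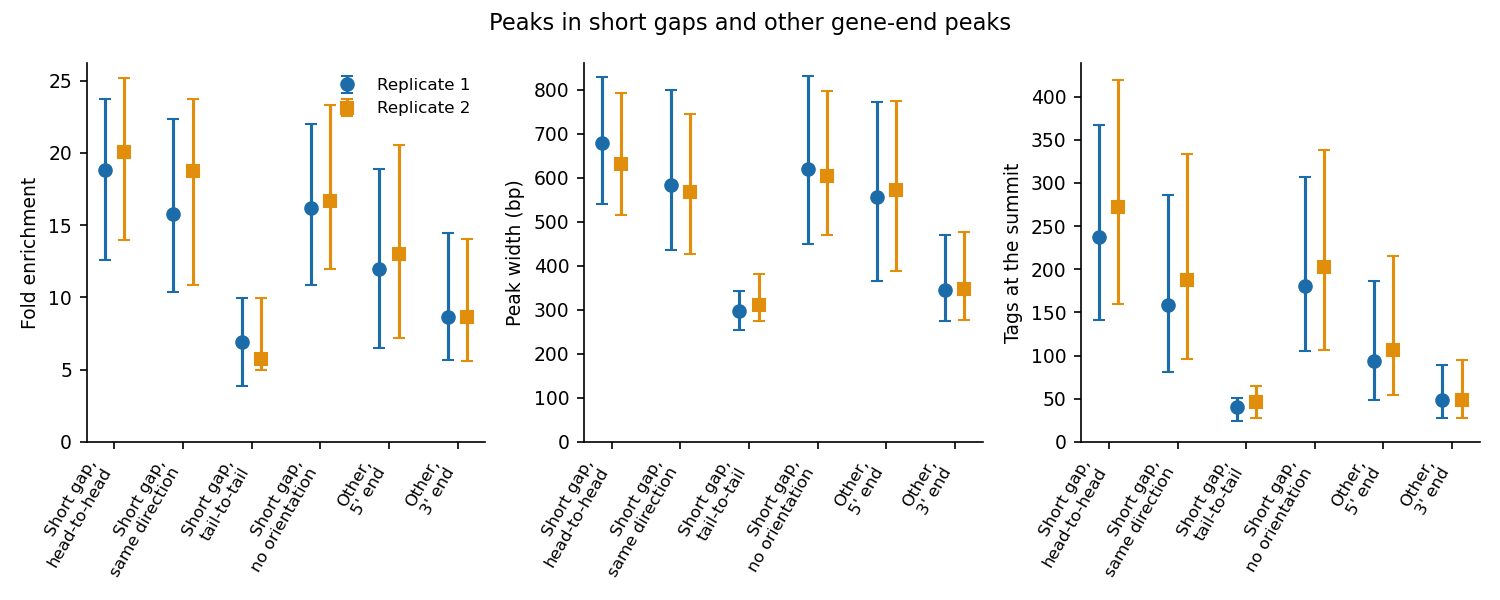
Median (point) and quartiles (bars) of fold enrichment, width in bp and summit tags in replicate 1 (circles) and replicate 2 (squares), for shared peaks in short gaps by gene layout and for other gene-end peaks by nearest gene end. Head-to-head peaks have the highest medians, with 18.8-fold and 20.1-fold, and tail-to-tail peaks the lowest, with 6.89-fold and 5.75-fold.

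The values differed between layouts. The 264 head-to-head peaks had a median fold of 18.8 and 20.1, a median width of 680 and 631 bp and a median of 237 and 272 tags. The 174 same-direction peaks had 15.8-fold and 18.8-fold, 583.5 and 567 bp, and 158.5 and 187 tags. The 11 tail-to-tail peaks had 6.89-fold and 5.75-fold, 297 and 311 bp, and 40 and 46 tags. Head-to-head peaks were higher than same-direction peaks by 2.16 ± 1.20 in fold (SD, n = 2), a difference that varied between the libraries, and by 81.8 ± 4.60 tags. They were higher than tail-to-tail peaks by 13.1 ± 1.72 in fold and by 211.5 ± 20.5 tags. Head-to-head and same-direction peaks also differed in gap length, with medians of 156 and 546.5 bp. At like gap length the order in fold was not constant. Head-to-head medians were higher at 1 to 200 and 301 to 500 bp, and lower at 201 to 300 and 501 to 1000 bp. At 101 to 200 bp they were 20.8 and 22.95 against 19.8 and 21.3, with 266 and 318 tags against 169 and 199. At 751 to 1000 bp they were 11.9 and 13.6 against 15.5 and 14.6, with 160 and 182 tags against 200 and 205. The 146 peaks with no known layout had 16.2-fold and 16.7-fold, between the head-to-head and tail-to-tail medians.

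Distance from the start site was then limited to the same range. Summits in a short gap lie close to a gene by construction, while the summit of another gene-end peak may lie deep inside or far outside a gene. When only peaks with the summit 1 to 250 bp outside the nearest gene end were used, 260 head-to-head peaks exceeded 4075 peaks at a single 5′ end by 1.61 ± 0.0526 in median fold (SD, n = 2). This compares with 6.34 for all peaks in short gaps against all other gene-end peaks. The difference in width was 39.5 ± 17.7 bp, and that in tags was 88.5 ± 12.0. The 159 same-direction peaks near the start of the downstream gene differed from the same single 5′ ends by 0.0444 ± 0.873 in median fold, less than the spread between libraries, and by 9.50 ± 7.78 tags. They were narrower by 29.5 bp (the difference being -29.5 ± 4.95). Within the 250 bp, 176 of 260 head-to-head summits lay 1 to 50 bp from the nearest end, against 1666 of 4075 at single 5′ ends. Distance was thus not fully matched. The limit of 250 bp was chosen after values were seen.

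Head-to-head peaks had more tags than single 5′ ends in each class of distance. With the summit 1 to 50 bp from the nearest end, head-to-head peaks had medians of 218.5 and 256 tags (n = 176) and single 5′ ends 148 and 165 (n = 1666). At 51 to 100 bp the medians were 285 and 324 (n = 61) against 177 and 200 (n = 1249). At 101 to 250 bp they were 362 and 412 (n = 23) against 156 and 172 (n = 1160). At 251 to 500 bp, with only 4 head-to-head peaks, they were 106.5 and 124.5 against 70 and 82 (n = 556). The excess thus grew over the first 3 classes and was smallest in the last. In fold the medians differed less, with 18.7 and 20.5 against 17.6 and 19.13 in the nearest class. They were 19.2 and 20.3 against 18.4 and 19.7 at 51 to 100 bp. The fold difference was larger at 101 to 250 bp, with 18.6 and 20.1 against 15.7 and 16.5. At 251 to 500 bp the fold medians were 8.68 and 10.4 against 9.06 and 9.98.

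**Figure D2:**
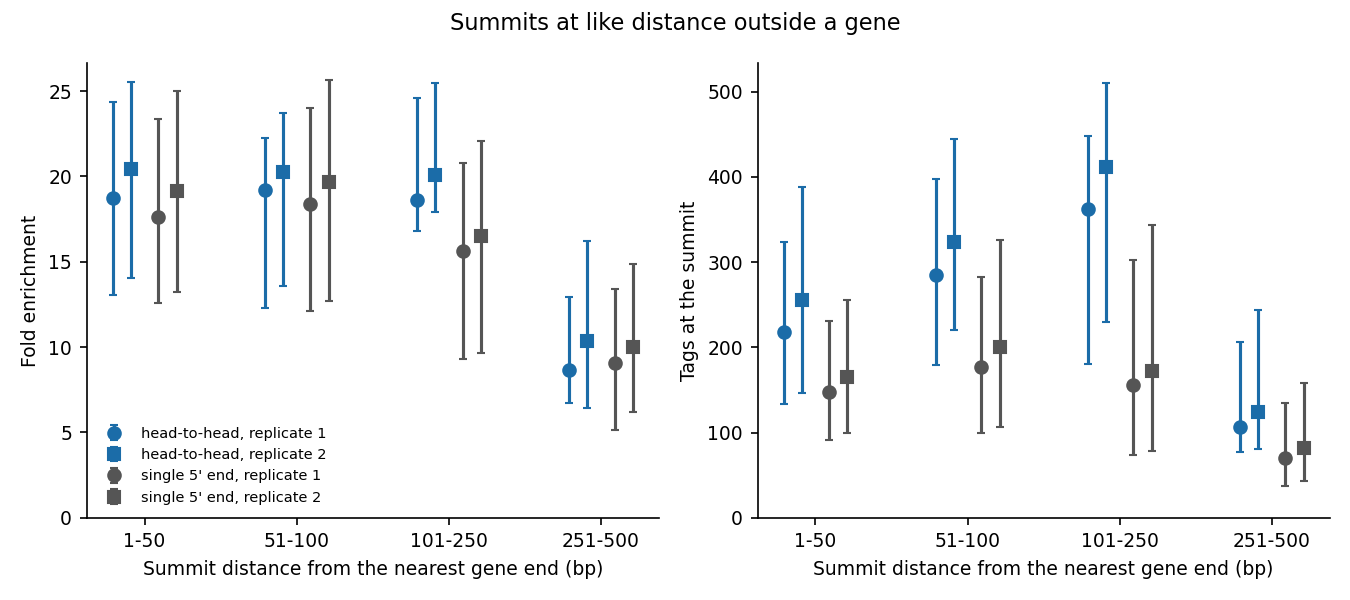
Median and quartiles of fold enrichment and of summit tags by distance in bp of the summit from the nearest gene end, for head-to-head peaks (blue) and for peaks outside genes at a single 5′ end (grey), in replicate 1 (circles) and replicate 2 (squares). Fold is close between both kinds up to 100 bp, whereas tags are higher in head-to-head gaps, with 362 and 412 against 156 and 172 at 101 to 250 bp.

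The share of gaps with a site also differed between layouts. A shared summit lay in 257 of 563 head-to-head gaps (45.6%, 95% Wilson interval 41.6 to 49.8), in 173 of 444 same-direction gaps (39.0%, 34.5 to 43.6) and in 10 of 424 tail-to-tail gaps (2.36%, 1.29 to 4.29). Intervals cover counting error only. Per kb of gap there were 2.76 summits in head-to-head, 0.854 in same-direction and 0.0649 in tail-to-tail gaps. These densities depend on gap length, with median gaps of 101, 448 and 378 bp in this order, since few gaps held over 1 summit. A summit falls less often inside a very short gap, so the overlap of any shared peak with the gap was counted as well. By that count 502 head-to-head gaps (89.2%, interval 86.3 to 91.5), 259 same-direction gaps (58.3%) and 15 tail-to-tail gaps (3.54%) were covered at least in part.

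Head-to-head gaps were covered at nearly every length. Of 146 such gaps of at most 50 bp, 132 were overlapped by a shared peak (90.4%), but only 21 held its summit (14.4%), which in the others lay inside a gene. The covered share was 95.5% at 51 to 100 bp and 84.2% at 751 to 1000 bp. Same-direction gaps behaved otherwise: 4 of 15 gaps of at most 50 bp and 15 of 42 of 51 to 100 bp were covered, against 71 of 105 of 501 to 750 bp. No tail-to-tail gap of up to 200 bp held a summit or was overlapped by a shared peak, among 148 gaps. Neither library had any peak at 58 head-to-head gaps (10.3%), 171 same-direction gaps (38.5%) and 393 tail-to-tail gaps (92.7%).

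**Figure D3:**
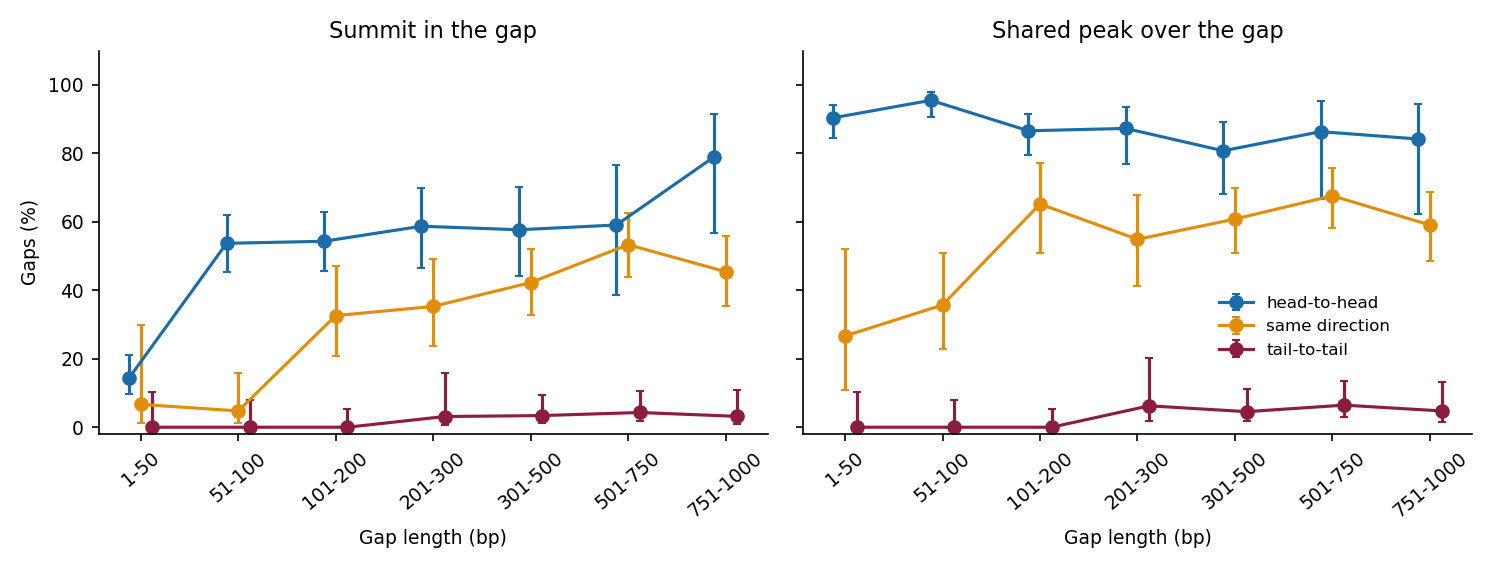
Percentage of gaps with a shared summit inside (left) and with a shared peak over any part of the gap (right), by gap length in bp and layout; bars are 95% Wilson intervals. Head-to-head gaps are covered in 80.8% to 95.5% of cases in each length class, and tail-to-tail gaps in at most 6.45%.

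Summits sat mostly at start sites. In 162 of 174 same-direction peaks (93.1%, interval 88.3 to 96.0) the summit was nearer to the start of the downstream gene than to the end of the upstream one, at a median of 60 bp from the start and 446.5 bp from the end. In gaps over 300 bp the same held for 130 of 138 peaks (94.2%), with a median of 63.5 bp from the start. The 12 peaks nearer to the upstream gene's end had a lower median fold than the 162, by 4.81 ± 1.48 (SD, n = 2). Their median tags differed by 2.25 ± 3.18, less than the spread between libraries.

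In head-to-head gaps the summit lay in the central 50% of the gap less often when the gap was long. An even spread would put 50% of summits there. The share was 59.1% (55 of 93) in gaps of up to 100 bp, 73.9% (51 of 69) at 101 to 200 bp and 62.2% (23 of 37) at 201 to 300 bp. In gaps of 301 to 1000 bp only 15 of 65 (23.1%) did, and 45 of the 65 lay within 100 bp of one of the genes. The peak covered the whole gap and both gene ends in 225 of 264 head-to-head cases in replicate 1 (85.2%) and 224 in replicate 2 (84.8%). The same-direction shares were 22.99% and 20.1%, but in longer gaps, with a median of 546.5 bp against 156 bp. In head-to-head gaps of 301 to 1000 bp, 26 of 65 peaks covered both ends in both libraries. All 162 head-to-head peaks in gaps of up to 200 bp covered both start sites in both libraries. Gaps of that length are short against the median head-to-head peak width of 680 and 631 bp.

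**Figure D4:**
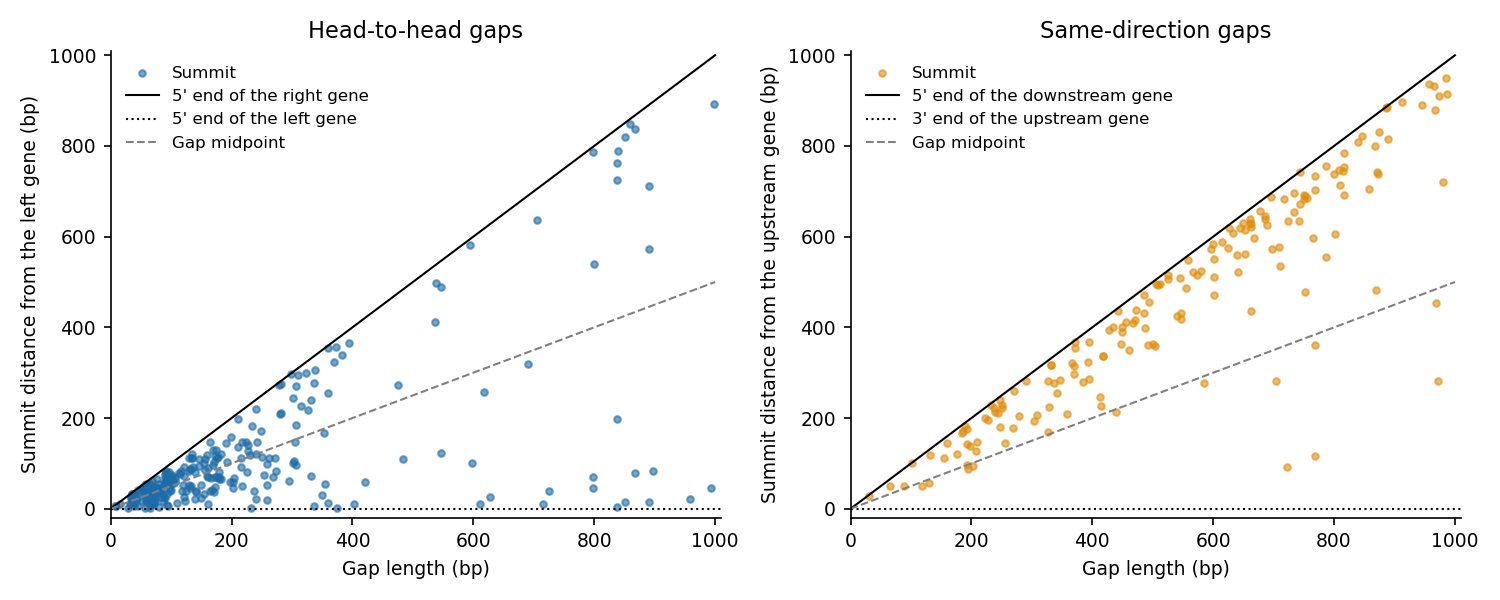
Distance in bp of each replicate 1 summit from one gene against gap length in bp, for 264 head-to-head and 174 same-direction peaks; lines mark both gene ends and the midpoint. Same-direction summits follow the line of the downstream start, at a median of 60 bp from it, and summits in long head-to-head gaps lie near either gene.

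Of the 13 gaps that held 2 peaks, the 3 with the highest fold rank are given, and all are head-to-head. Gart, a purine synthesis gene, and Son, a splicing cofactor gene, are 851 bp apart on chromosome 16. One peak, 14 bp from Gart, had 10.3-fold and 9.78-fold, and the other, 33 bp from Son, had 19.7-fold and 21.9-fold. At Stap2 and Mpnd on chromosome 17, 798 bp apart, the peak 70 bp from Stap2 had 19.5-fold and 18.9-fold and that 13 bp from Mpnd had 6.56-fold and 8.19-fold. At Mrpl41, a mitochondrial ribosomal protein gene, and Pnpla7, 891 bp apart on chromosome 2, the peak next to Mrpl41 had 22.3-fold and 23.04-fold, and the second, 572 bp from Mrpl41 and 320 bp from Pnpla7, had 3.48-fold and 3.38-fold. The first 2 gaps had a peak next to each gene, and the third had one next to Mrpl41 alone. The order of the peaks was not the same in both libraries in every such gap: between Elapor1 and 1700013F07Rik, named after its values were seen, the peaks had 12.99-fold and 11.4-fold in replicate 1 and 12.4-fold and 17.0-fold in replicate 2.

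Of the 10 sites of highest fold, the 9 with a known layout had the summit nearest to a gene start. The highest fold belonged to the 711 bp gap between Ltn1, an E3 ligase gene of ribosome quality control, and Rwdd2b on chromosome 16, with 34.1 in replicate 1 and 37.6 in replicate 2, 29 bp from Ltn1. It rested on 507 and 608 tags. Edc4, a scaffold gene of mRNA decapping, and Nrn1l on chromosome 8 followed with 33.2 and 37.1. Among head-to-head gaps, Trappc11 and Rwdd4a led with 32.5 and 35.5. The replicate 1 summit was 46 bp from Rwdd4a, at the GGGCGG printed above, and the replicate 2 summit lay outside those letters. Coa3, an assembly factor gene of respiratory complex IV, and Cntd1, a gene of meiotic crossover formation, share a 254 bp gap on chromosome 11 at 101278949 to 101279202, with 32.0 and 36.2. Acad8, a valine breakdown enzyme gene, and Thyn1 share one of 70 bp on chromosome 9 with 32.2 and 34.5 and 565 and 614 tags. The remaining 5 of the leading 10 were between Rhot2 and Wdr90 (33.1 and 33.8), Spag5 and Aldoc (32.1 and 34.8), Clip3 and Alkbh6 (32.1 and 33.4), Rassf1 and Tusc2 (31.5 and 34.2) and Cetn4 and Bbs12 (31.9 and 33.4). Replicate 2 was the higher library at each of these 10.

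The 5 weakest sites were in same-direction and tail-to-tail gaps. The lowest mean rank was that of a peak between the histone genes H2ac13 and H3c10 on chromosome 13, with 2.75-fold and 2.49-fold but 104 and 88 tags, 652 bp from the start of H3c10. Rpl10a, a ribosomal protein gene, and Tead3, a transcription factor gene, are tail-to-tail on chromosome 17 and held 2 replicate 1 peaks, of 2.61-fold and 3.01-fold, which share 1 replicate 2 peak of 3.01-fold. Jund, an AP-1 gene, and Iqcn had 2.89-fold and 3.06-fold, and Cilp2 and Yjefn3 had 3.20-fold and 3.00-fold, 28 bp from the start of Cilp2. The 2 tail-to-tail peaks above 16-fold in replicate 1 were those between Tppp2 and Rnase13 (24.0 and 17.4, on 96 and 77 tags) and between Lysmd3 and Polr3g (16.9 and 7.36, on 57 and 22 tags). These were chosen for mention after their values were seen. Polr3g, a subunit gene of RNA polymerase III, has a short gap at each end. At its start, which it shares with Mblac2, the peak had 19.7-fold and 19.4-fold on 310 and 324 tags, and was among the widest of all, at 1219 and 1460 bp. The 11 tail-to-tail peaks had a median fold below that of 1287 other peaks nearest to a 3′ end, the difference being -2.32 ± 0.793 (SD, n = 2).

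Among the widest sites, beside that of Polr3g and Mblac2, was the one between Syngr4 and Tmem143 (1389 and 1253 bp). The shortest gaps with a summit were of 7 bp between Entr1 and Pmpca (13.1-fold and 14.6-fold), of 9 bp between Rps28, a ribosomal protein gene, and Ndufa7, a complex I gene (14.3 and 14.1), and of 16 bp between Dand5 and Gadd45gip1 (9.57 and 9.84) and, at the same length, between Cenpt and Thap11 (9.45 and 8.74). The longest, of 999 bp, lay between Pcgf2, a Polycomb gene, and Psmb3, a proteasome gene (17.4 and 20.1). Around the limit of the rule the share of gaps with a summit fell gradually, and median fold had no steady trend. Gaps of 801 to 900 bp held a summit in 39 of 115 cases (33.9%) with a median fold of 13.0 and 13.6. Those of 901 to 1000 bp did in 25 of 86 cases (29.1%) with 17.1 and 19.2. Beyond the limit, gaps of 1001 to 1100 bp did in 23 of 89 cases (25.8%) with 14.4 and 16.0. Those of 1101 to 1200 bp did in 25 of 102 cases (24.5%) with 18.1 and 19.3.

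Gene groups differed in how often they lie at a short gap, and in the sites they had there. Of all protein-coding genes, 16.5% flank a short gap, and 31.3% of those had a summit in it. DNA repair genes flank one in 27 of 62 cases (43.5%), and 11 of the 27 had a summit (40.7%). The highest were Mre11a with Ankrd49 (27.6-fold and 28.2-fold), Xrcc3, a recombination gene, with Zfyve21 (27.1 and 28.2, on 714 and 814 tags), Xrcc4, an end-joining gene, with Tmem167 (25.9 and 26.8) and Ercc8, an excision repair gene, with Ndufaf2 (25.2 and 26.5). All 4 are head-to-head. Of the list's head-to-head gaps, 8 of 15 held a summit (53.3%, against 45.6% of all head-to-head gaps). Of the 44 DNA replication genes, 11 flank a short gap (25.0%) and 3 had a summit (27.3%). They were Rpa3 with Umad1 (27.8 and 28.2), Pole with Pxmp2 (19.2 and 20.1) and Pold1 with Nr1h2 (17.6 and 17.6).

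Mitochondrial genes were often at such gaps, with 38.5% of the ribosomal protein list and 45.9% of the oxidative phosphorylation list, against 16.5% of all genes. Of 78 mitochondrial ribosomal protein genes 30 flank one, and 11 had a summit, among them Mrpl28 (30.0-fold and 32.1-fold), Mrpl50 with Zfp189 (30.5 and 30.9), Mrps27 with Ptcd2 (25.7 and 26.5) and Mrps18c with Helq (22.96 and 25.3). Of 109 oxidative phosphorylation genes, assembly factors included, 50 flank one and 14 had a summit, with Atp5e (31.6 and 32.3), Atp5h with Kctd2 (27.6 and 30.7), Uqcrb (28.2 and 26.4) and Ndufb9 (25.5 and 26.3). Genes with a summit were 36.7% of the flanking genes in the first list and 28.0% in the second, against 31.3% of all flanking genes. Of their head-to-head gaps, 50% and 30.8% held a summit, against 45.6% of all head-to-head gaps. The median folds of the peaks were 20.8 and 22.3 in the first list and 19.4 and 17.5 in the second, against 17.3 and 18.8 over all short gaps. Of 81 cytosolic ribosomal protein genes 22 flank one (27.2%) and 10 had a summit (45.5%), with medians of 11.1 and 12.0. Rpl3l with Msrb1 (30.7 and 34.6) stood far above Rpl4 with Snapc5 (16.0 and 18.8) and Rpl9 with Lias (16.6 and 17.8). The Rpl3l summit was 49 bp from the start of Msrb1 and 401 bp from the end of Rpl3l, and that at Rpl4 was 81 bp from the start of Snapc5. Of 33 tRNA synthetase genes 12 flank one (36.4%) and 2 had a summit (16.7%). These were between Dnd1 and Hars (26.2 and 24.5) and between Aars and Exosc6 (23.9 and 22.7), the latter 66 bp from the start of Exosc6. The former summit was nearer to Dnd1 (107 bp) than to Hars (207 bp), and the layout of that gap is not known. None of the list's 5 head-to-head gaps held a summit. Kars and Iars2 have head-to-head gaps of 4 and 8 bp that a shared peak covered, with its summit 8 and 10 bp outside.

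Core histone genes form head-to-head pairs of H2A and H2B genes, which share a promoter. The list as written takes genes whose names begin with H2a, H2b, H1f and the older Hist, H3f and H4f, and so leaves out the H3c and H4c genes. Of its 78 genes 34 flank a short gap and 25 of these had a summit (73.5%, against 31.3% of all such genes). Paired genes share a gap, so a peak can count for both. By gap, 17 of 27 held a summit, against 29.1% of all short gaps. Of 9 head-to-head gaps between 2 genes of the list, of 163 to 280 bp on chromosome 13, 7 held a summit. Of all head-to-head gaps 45.6% did, with 54.3% at 101 to 200 bp and 58.7% at 201 to 300 bp. Fold in the 7 histone gaps was modest, from 8.11 to 18.7 in replicate 1 (median 11.0) and from 9.37 to 23.7 in replicate 2 (median 12.1). Tags were many, from 324 to 580 (median 404) and from 343 to 678 (median 426), and every one of the 7 exceeded the head-to-head median of 237 and 272. The highest in fold was H2ac12 with H2bc12 (18.7 and 23.7). The gap of H2ac15 and H2bc15, printed above, has 3 CCAAT boxes like that of H2ac12 and H2bc12, and a GC content of 41.7% against 42.4%, but no peak in either library, with the nearest shared summit 732 bp away. H2bc23 and H2ac23 had none either. Histone genes are near-identical copies, and reads that fit several copies can be lost or split, so their values are uncertain.

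Cohesin, meiotic prophase, piRNA and spermiogenesis genes flank short gaps in shares above the 16.5% of all genes, but their numbers are small. The cohesin share was close to that of all genes. Genes of undifferentiated spermatogonia, given below, lay under it at 3.03%. Of 22 cohesin and CTCF genes 4 flank one (18.2%), and 2 of these had a summit. Cdca5, the sororin gene, and Zfpl1 share a 121 bp gap on chromosome 19 with 12.8-fold and 13.0-fold on 178 and 194 tags. Smc1b and Ribc2 had 10.1-fold and 11.9-fold on 41 and 49 tags, far below the head-to-head median of tags. The 34 bp gap of Mau2, a cohesin loader gene, and Sugp1 was covered by a shared peak with its summit 256 bp outside. Rec8, the meiotic kleisin gene, and Ipo4 are tail-to-tail, 4 bp apart, with no peak at the gap. Of 46 genes of meiotic prophase 10 flank a short gap (21.7%) and 4 had a summit, where 31.3% of all genes at short gaps did. They were Cntd1, Psmc3ip, a gene of strand exchange (24.4 and 26.9, 3 bp from its start), 4930432K21Rik (23.2 and 26.9) and Gm960 (9.45 and 10.3). Gm960 is also called Top6bl and is part of the break machinery. Its gap with Rce1 is same-direction, and the replicate 1 summit was nearer to Rce1 (38 bp) than to Gm960 (51 bp). Of 24 genes of the piRNA pathway 6 flank a short gap (25.0%) and 2 had a summit, Mov10l1 with Mlc1 (19.3 and 21.2) and Exd1 with Chp1 (15.2 and 15.5), and both gaps are head-to-head. Of 37 spermiogenesis genes 12 flank a short gap (32.4%) and 4 had a summit. The summit next to Izumo1, a sperm-egg fusion gene, was 69 bp from its own start (14.0 and 13.4). Those next to Gapdhs (26.5 and 30.2) and Tekt2 (10.7 and 13.95) were at the start of the neighbour, 33 bp from Tmem147 and 82 bp from Adprhl2. Hspa1l, which shares a head-to-head gap with Hspa1a, had 5.15 and 5.78. The replicate 1 summit was 57 bp from Hspa1l, but the replicate 2 summit lay outside the gap on the side of Hspa1a.

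The remaining lists differed in how often their genes flank a short gap, again set against 16.5% of all genes and a summit for 31.3% of those. Of 33 genes of undifferentiated spermatogonia only Tex14 flanks one (3.03%). Its 58 bp head-to-head gap with Rad51c, a recombination gene, was covered by a shared peak whose summit lay 11 bp outside. Of 397 Zfp zinc finger genes 43 flank a short gap (10.8%) and 12 had a summit (27.9%), led by Zfp189, Zfp28 with Zfp78 (26.7 and 29.5), Zfp277 with Dock4 (21.9 and 23.2) and Zfp142 with Bcs1l (21.6 and 22.5). The shortest head-to-head gaps of 50 bp or more without any peak included that of Zfp942 and Zfp943, with the nearest shared summit 236 bp away, and those of Acp4 and Gm15517 and of Rnf123 and Mst1. Of 1465 olfactory and vomeronasal receptor genes 7 flank one (0.478%) and none had a summit. Of 30 markers of testis somatic and feeder cells 5 flank one (16.7%), and of these Dhh with Rhebl1 (13.5 and 15.3) had a summit. The layout of that gap is not known, and the summit was nearer to Rhebl1 (39 bp) than to Dhh (79 bp). Of 16 endothelial and blood markers 3 flank one (18.75%), and of these Cd68 with Eif4a1 (5.60 and 7.07) had a summit. That summit was 168 bp from the start of Cd68, a macrophage gene, on 69 and 87 tags.

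Promoter windows at gaps with a site were rich in GC and CpG. Each window runs from 250 bp before to 50 bp after the start of the gene model, and 1 window was used per gap. At 220 head-to-head gaps with a summit the median GC content was 61.8% and the ratio of observed to expected CpG was 0.837. At 127 same-direction gaps with a summit they were 59.0% and 0.708. At 60 same-direction gaps without a peak in either library they were 55.0% and 0.254, and at 47 such head-to-head gaps 56.3% and 0.724. All 21263 windows of protein-coding genes had medians of 56.3% and 0.567, so the same-direction gaps without a peak lay below and the other kinds above them in CpG.

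Several motifs were more frequent in head-to-head windows with a summit than in all protein-coding windows, and some of them were as frequent in head-to-head windows without a peak. CCGGAAG was found in 28.6% of head-to-head windows with a summit (63 of 220, interval 23.1 to 34.9), in 14.9% of the 47 head-to-head windows without a peak (interval 7.41 to 27.7), in 22.0% of same-direction windows with a summit and in 1.67% of those without a peak, against 11.6% of all protein-coding windows. AAGATGGCG was found in 7.73% and GCGCATGCG in 5.00% of head-to-head windows with a summit, against 1.83% and 2.35% of all. CCAAT was in 53.6% and GGGCGG in 72.7%, against 38.2% and 46.2%. TATAAA went the other way, with 5.45% against 12.6%. TGACGTCA was in 4.09% against 2.23%, TCTCGCGAG in 4.09% against 0.964%, ACTACAATT in 1.82% against 0.508%, and TTTGGCGC and TTCCCGCC in 1.36% and 3.64% against 0.635% and 2.85%. In the 47 head-to-head windows without a peak CCAAT was in 51.1%, GGGCGG in 53.2%, GCGCATGCG in 4.26%, AAGATGGCG in 2.13%, TATAAA in 14.9% and TCTCGCGAG in 6.38%. The shares of CCAAT and GCGCATGCG were thus close to those with a summit, and that of TCTCGCGAG was higher, on 3 windows. TTTGGCGC, TTCCCGCC and TGACGTCA were each in 2.13% and ACTACAATT in none. GC content differed between the windows as given above, and its part in the shares was not tested.

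The 2 libraries gave like pictures of these sites. In replicate 1, 615 peaks had the summit in a short gap, and 595 of these recurred in replicate 2 (96.7%, interval 95.03 to 97.9), against 90.4% of other gene-end peaks. Of 620 such replicate 2 peaks, 608 (98.1%, interval 96.6 to 98.9) recurred in replicate 1, against 91.6%. The 20 and 12 that did not were weak, with medians of 25.5 and 22.5 tags. The median shift of the summit between libraries was 9 bp, and 538 replicate 2 summits (90.4%) lay in the same gap. Tags were higher in replicate 2 at 476 of the 595 sites (80.0%), against 66.7% of other gene-end peaks, with a ratio of summed tags of 1.14 in both classes. They differed by over 2-fold at 17 sites (2.86%), against 4.73% of other gene-end peaks. Across the sites, which are not independent, log2 tags of the libraries correlated with r = 0.956.

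**Figure D5:**
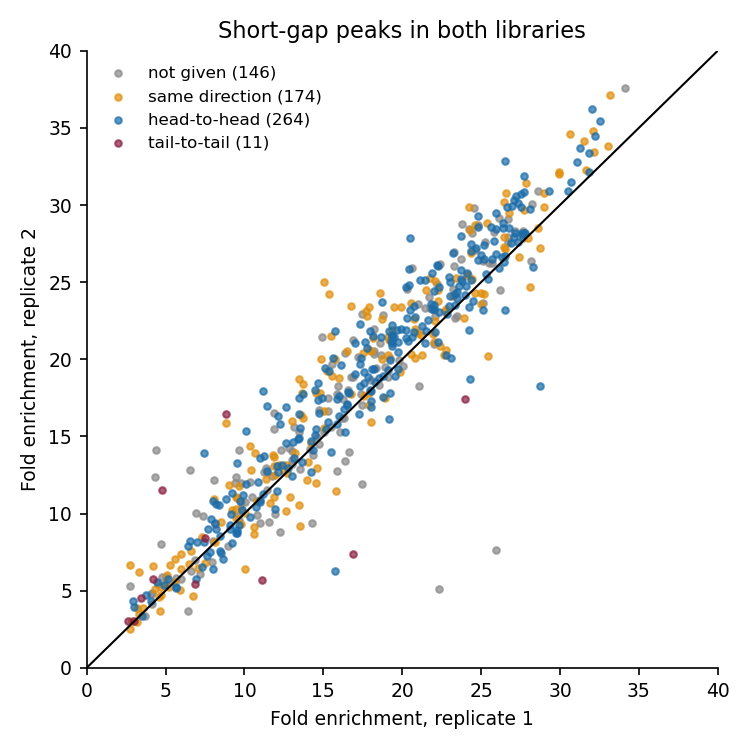
Fold enrichment of the 595 short-gap peaks in replicate 1 (x axis) and replicate 2 (y axis), coloured by layout, with the line of equality. Points follow the line with a small shift towards replicate 2, and a few peaks lie far from it, tail-to-tail ones and others.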

How the data were processed

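ATAC-seq peak lists of 2 Stag3 KO libraries were used. Peaks were called per sample, with MACS2 2.1.1 among the tools in the submitters' processing notes. Bowtie2 2.3.4.1, Trim Galore, bedtools 2.29.2, deepTools 3.5.0 and Picard 2.18.23 are the others, and mm10 and GRCm38.p3 are the builds. The settings, the Tn5 shift and the handling of duplicates are not given in the sources used here. The deposited lists hold a fold enrichment per peak, a ratio to the local background, with −log10 p and −log10 q, and an integer score that was not used. These values are the authors' own. Read depth is unknown. Summit tags were recovered from the deposited fold and −log10 p, with a solution for 100% of peaks.

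Gene positions and strands came from RefSeq tables of GRCm38.p6. Gaps, overlaps, distances and motif matches were computed with Python 3.11.15, numpy 2.4.6, pandas 2.3.3 and scipy 1.17.1, and the functions were tested on simulated data. Each class was summarised per library by its median, and differences of medians by mean and SD over 2 libraries. No test was run, since there is 1 group. The genes named are the 10 peaks of highest and 5 of lowest mean fold rank, the 3 widest, the shortest and longest gaps, 3 gaps with 2 peaks, up to 4 per gene list by fold, and the shortest gaps without a summit. One item that this rule names is not reported here. Gaps without a summit are named only where both strands are known. The names Spo16, Ngn3 and Plzf matched no gene. Alternatives changed the gap limit, the overlap, the replicate giving the summit and the comparison set, and left out each replicate. The members and lists were chosen with earlier results of these data known.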

Additional observations from a re-analysis of the deposited data

How the results depend on the processing

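No result changed direction under any alternative. The values to compare with are 595 peaks, a difference from other gene-end peaks of 6.34 in median fold, 81.0 bp in width and 122 tags, a head-to-head share of 58.8% and a median of 70 bp from the gap midpoint. With gaps of up to 500 bp there were 393 peaks, with a fold difference of 7.69, 148.5 tags, a head-to-head share of 74.0% and 31.5 bp. With gaps of up to 2000 bp there were 900 peaks, with 5.07, 102.25 tags, 45.9% and 184 bp. With a reciprocal overlap of 50% the fold difference was 5.77, with the replicate 2 summit the tag difference was 113, and in gaps free of other genes the midpoint distance was 63.75 bp. Against gene-end peaks within 500 bp the differences were 4.22, 29 bp and 102 tags. Against those outside genes they were 3.20 and 84.5 tags, and near 5′ ends 5.64, 51 bp and 112 tags. For all of these the cause was not tested. Leaving out a replicate gave 6.67 to 8.01 in fold, 112 to 131 bp in width and 120 to 140 tags. Alternatives added after seeing the data compared head-to-head peaks with single 5′ ends within 250 bp (1.61, 39.5 bp and 88.5 tags) and counted any shared peak over the gap (51.95% of gaps, against 29.1% with a summit). No paired analysis was possible because there is 1 group. With 2 libraries of unknown depth, no difference has more than a spread over 2 values.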
